A study of Mus musculus with 20 samples.

Results

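The genes described here are 35 mouse genes of glucose breakdown and of the response to low oxygen. They comprise glucose and lactate carriers, the enzymes from hexokinase to lactate dehydrogenase and regulators of the pathway. Also among them are the oxygen-regulated factor Hif1a, its prolyl hydroxylases Egln1 and Egln3, and further known HIF-1 targets. The genes were chosen by name for their roles in the pathway, with earlier results of these data known. All 35 were matched among 49315 counted gene identifiers. After the filter on low counts, 34 of them stood among the 16500 genes tested. The gene left out by the filter was Eno2.

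Eosinophils were sorted by flow cytometry from mouse lung, and RNA was sequenced from 20 samples in 4 groups of 5. The first group used here is resting lung from untreated C57BL/6 mice. The second is lung 7 days after C57BL/6 mice had received Balb/c lungs, in samples titled as having had no CSB (costimulatory blockade, a treatment that blocks T cell activation). Both groups hold 5 libraries, each a pool of lungs from 3 to 5 mice, and the infiltrating eosinophils are recipient-derived per the labels. The mice's age and the sorting gate do not stand in the labels, and the growth protocol mentions transplantation only with the blockade. The groups that received the blockade were not analysed here.

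Library totals ran from 6666577 to 12883144 counts in resting lung and from 15695074 to 26683784 counts at day 7. The counts of the 2 groups came in separate tables, so table, depth and group cannot be told apart. Levels are given as CPM, counts per 1000000 counts of the library, scaled by TMM, a factor that corrects for differences in RNA composition between libraries. Eosinophil markers were present in every library, and the 13 listed summed to 2015 to 3595 CPM in resting lung and 2053 to 3957 CPM at day 7. Within these sums 6 markers, all of granule proteins (Prg2, Epx, Prg3, Ear1, Ear2 and Ear6), fell without overlap, with log2 fold changes from -3.75 (Epx) to -1.79 (Ear6). Csf2rb (log2 fold change 1.21) and Siglecf (0.59) rose, and the other 5 did not pass. Markers of other cells were present too: 13 neutrophil markers summed to 9463 to 12629 CPM and then 5332 to 10824 CPM, and 10 endothelial markers to 2136 to 2903 CPM and then 81.0 to 146 CPM. Lung epithelial markers (10 genes) summed to 3364 to 6039 CPM and then 40.7 to 496 CPM, with 9 lower. Alveolar macrophage markers (8 genes) summed to 1177 to 1908 CPM and then 553 to 1264 CPM, with 5 lower and 1 higher. Stromal markers (8 genes) summed to 452 to 570 CPM and then 134 to 666 CPM, with 4 lower and 1 higher. Monocyte and macrophage markers (14 genes) summed to 1482 to 2458 CPM and then 4042 to 9453 CPM, with 11 of 14 higher and none of them at 0 in either group. T cell markers (12 genes) summed to 102 to 145 CPM and then 417 to 1034 CPM, with all 12 higher. The libraries are therefore called by their labels, and in such bulk samples fewer cells of a type and less RNA per cell cannot be told apart. The part of these other cells in the changes below was not tested.

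As background, glycolysis splits glucose into pyruvate in the cytosol and yields ATP without oxygen. Lactate dehydrogenase then turns pyruvate into lactate, which regenerates the NAD+ that the pathway needs, and monocarboxylate carriers move lactate out of the cell. HIF-1 is a transcription factor whose alpha subunit, Hif1a, is hydroxylated by Egln enzymes and degraded when oxygen is plentiful. When oxygen is scarce, or in many activated leukocytes, HIF-1 binds short sequence elements near genes of glucose uptake and glycolysis.

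Genes of glycolysis were higher at day 7 along nearly the whole pathway. By edgeR's quasi-likelihood test with Benjamini-Hochberg adjustment over all genes, 25 of the 34 genes tested rose, 2 (Pfkm and Ldhb) fell, and 7 (Slc2a3, Hk1, Slc16a3, Pfkfb3, Pfkfb4, Egln1 and Vegfa) did not pass the threshold of 0.05. Nothing in the labels says how the pools were kept apart, so p-values measure the spread between these pools. Among all genes tested, 23.3% were called higher and 23.4% lower. In 22 of the 34 genes every day 7 library lay above every resting library, against 16.4% of all genes tested, and in Ldhb every day 7 library lay below. The log2 fold changes, given throughout as day 7 minus resting, ran from -0.88 to 2.34 with a median of 1.15, beside a median of 0.05 over all genes. Scaling by library totals alone lowers that median of all genes by 0.19 and moves the share of higher among all calls from 49.9% to 33.8%. Under that scaling 23 of the genes were called higher and 3 lower.

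**Figure D1:**
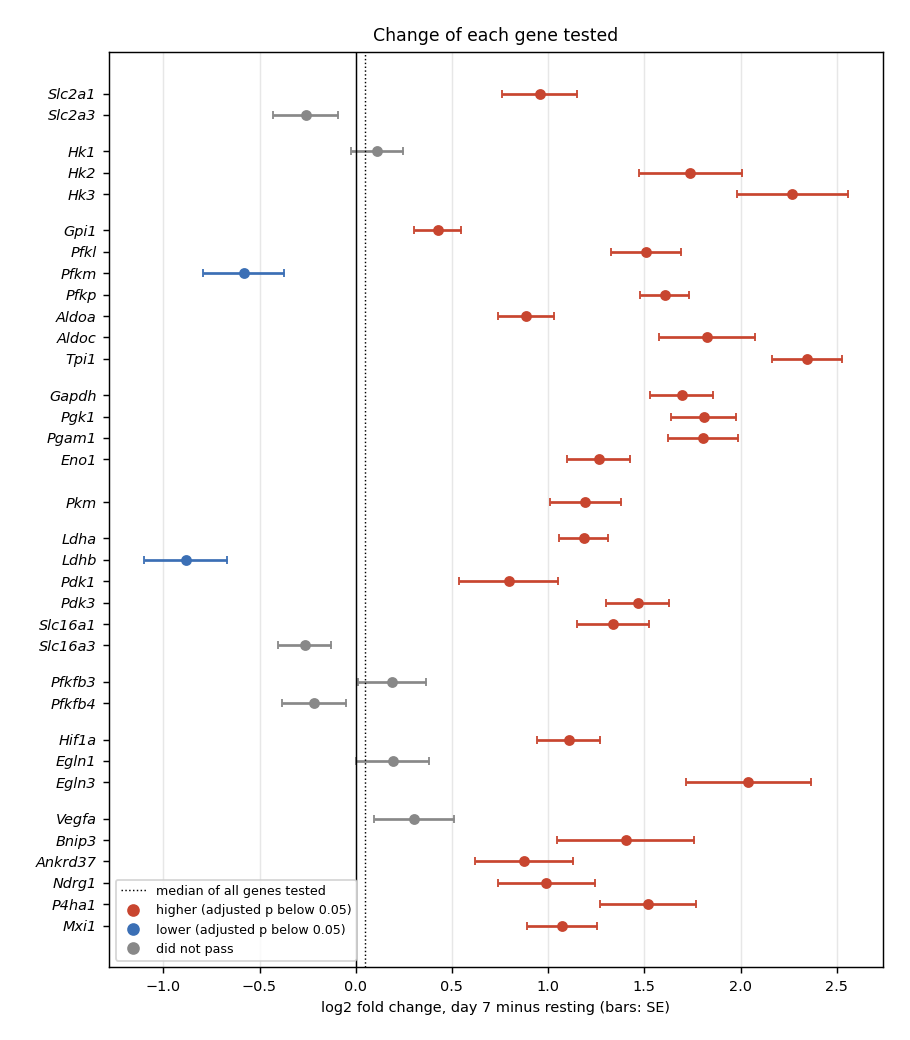
Log2 fold change of each of the 34 genes tested (x axis, day 7 minus resting; bars are standard errors), ordered by role, with the median of all genes as a dotted line. Red points mark the 25 genes called higher, blue the 2 called lower and grey the 7 that did not pass; Tpi1 (2.34) and Hk3 (2.27) stand farthest right.

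The core of the HIF-1 binding element reads ACGTG or GCGTG, and the promoter windows of these genes were searched for these letters on both strands. Windows were the 250 bases upstream of each RefSeq transcription start (assembly GRCm38.p6), and 49 windows were found for 33 of the 35 genes, with none for Ndrg1 and Slc2a3. The letters ACGTG stood in 25 of the 49 windows (51.0%), against 20.7% of 14191 windows of genes tested and 16.6% of all 32851 windows. Either core stood in 39 of 49 windows (79.6%), against 52.9% of the windows of genes tested and 38.6% of all windows. The E-box CACGTG, which contains ACGTG on both strands and is known as a binding element of Myc and related factors, stood in 6 of the 49 windows (12.2%), against 7.97% of windows of genes tested. By call, ACGTG stood in a window of 16 of the 24 genes that rose and have a window, of 1 of the 2 that fell, and of 4 of the 6 that did not pass and have one. Counted by gene, 63.6% of the 33 genes had it, against 24.2% of genes tested that have a window. Known HIF-1 targets were put among these genes by choice, so the higher shares are no independent result. Some windows of 1 gene overlap, as for Aldoa, so a site can count in 2 windows. A match is a description of the letters and not of a bound site.

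Shown are 6 windows with no annotated exon in them, each read 5′ to 3′ on the strand of its gene, with the core letters in capitals (CACGT is ACGTG read on the other strand). Hk2 and Hk3 are the hexokinases that rose, Pgk1 rose with the lower pathway, Ldha and Ldhb are the lactate dehydrogenase genes that moved in opposite directions, and Vegfa is an HIF-1 target that did not pass, shown with its window free of exons. The windows are chr6:82774455-82774704 (minus strand) for Hk2, chr13:55021386-55021635 (minus) for Hk3, chrX:106186850-106187099 (plus) for Pgk1, chr7:46845554-46845803 (plus) for Ldha, chr6:142507958-142508207 (minus) for Ldhb and chr17:46032378-46032627 (minus) for Vegfa.
Hk2: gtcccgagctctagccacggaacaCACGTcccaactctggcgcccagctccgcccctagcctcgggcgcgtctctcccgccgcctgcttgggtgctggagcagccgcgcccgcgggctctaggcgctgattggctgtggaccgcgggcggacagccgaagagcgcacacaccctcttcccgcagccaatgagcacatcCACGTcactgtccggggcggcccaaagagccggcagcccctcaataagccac
Hk3: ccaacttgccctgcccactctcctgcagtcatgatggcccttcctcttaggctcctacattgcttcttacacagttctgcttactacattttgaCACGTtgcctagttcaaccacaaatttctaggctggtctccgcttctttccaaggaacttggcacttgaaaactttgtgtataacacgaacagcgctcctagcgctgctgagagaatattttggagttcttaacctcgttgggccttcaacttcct
Pgk1: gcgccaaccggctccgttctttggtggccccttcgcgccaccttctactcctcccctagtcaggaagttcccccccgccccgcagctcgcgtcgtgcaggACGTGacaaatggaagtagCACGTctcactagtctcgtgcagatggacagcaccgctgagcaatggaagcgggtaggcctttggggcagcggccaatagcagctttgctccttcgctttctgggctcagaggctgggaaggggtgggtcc
Ldha: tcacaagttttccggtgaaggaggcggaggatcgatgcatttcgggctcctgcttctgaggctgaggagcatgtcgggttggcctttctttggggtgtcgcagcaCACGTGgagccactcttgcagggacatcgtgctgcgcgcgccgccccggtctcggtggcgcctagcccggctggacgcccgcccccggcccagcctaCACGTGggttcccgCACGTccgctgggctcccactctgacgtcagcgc
Ldhb: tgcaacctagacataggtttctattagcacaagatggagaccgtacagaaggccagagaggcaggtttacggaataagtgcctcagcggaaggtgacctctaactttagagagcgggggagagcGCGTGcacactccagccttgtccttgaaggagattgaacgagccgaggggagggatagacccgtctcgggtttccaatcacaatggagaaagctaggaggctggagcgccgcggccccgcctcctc
Vegfa: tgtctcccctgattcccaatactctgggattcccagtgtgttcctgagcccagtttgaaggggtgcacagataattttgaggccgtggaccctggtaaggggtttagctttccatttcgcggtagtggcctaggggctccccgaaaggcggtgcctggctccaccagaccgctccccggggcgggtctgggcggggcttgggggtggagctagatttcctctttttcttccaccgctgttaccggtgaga
The Ldha window held ACGTG at 5 positions, counting both strands, of which 4 lie in its 2 E-boxes. The Pgk1 and Hk2 windows held it at 2 positions each and the Hk3 window at 1. The Ldhb window held GCGTG alone, and the Vegfa window held neither core in these 250 bases. Both Vegfa and Ldha have a second RefSeq start: the other Vegfa window (chr17:46025164-46025413), not printed because it overlaps an annotated exon, held ACGTG and GCGTG at 1 position each, and the other Ldha window (chr7:46846832-46847081) held GCGTG alone. Through that window Vegfa counts among the 4 genes above that did not pass and have ACGTG.

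Glucose entry split between its 2 carriers. Slc2a1 (GLUT1, the basal glucose carrier of most cells, ENSMUSG00000028645, mm10 chromosome 4, 119108711 to 119137983) rose. Its levels were 115, 187, 146, 139 and 157 CPM in resting replicates 1 to 5 and 392, 364, 259, 236 and 195 CPM in day 7 replicates 1 to 5. The groups did not overlap, and the log2 fold change was 0.96 ± 0.19 (SE, edgeR adjusted p = 0.00117). Slc2a3 (GLUT3, a high-affinity carrier abundant in leukocytes) stood at 206, 218, 187, 192 and 181 CPM in resting lung and at 141, 121, 166, 147 and 246 CPM at day 7. Its day 7 libraries lay below the resting ones except replicate 5, which was the highest of all 10. The log2 fold change of -0.26 ± 0.17 did not pass (edgeR adjusted p = 0.221), but without day 7 replicate 5 it was -0.44 and did (adjusted p = 0.00722).

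Per kilobase of exon, Slc2a1 stood at 42.5 ± 7.54 CPM per kb (SD, n = 5) in resting lung and 82.5 ± 24.2 CPM per kb at day 7. Slc2a1 thus made up 60.7 ± 4.32% of the length-scaled level of both carriers in resting lung and 77.3 ± 9.62% at day 7. Which carrier leads at rest depends on the length: by mean CPM, Slc2a3 (197) stood above Slc2a1 (149) in resting lung. At day 7 Slc2a1 (289) stood above Slc2a3 (164) by CPM too. Day 7 replicates 1 to 4 lay between 76.4% and 86.1%, above every resting library, and replicate 5 at 62.1% lay within the resting range. The difference of 16.6 percentage points passed (two-sided exact permutation test, 5 against 5, p = 0.0238, adjusted p = 0.0303 over 14 isozyme shares; the smallest p this design allows is 0.00794). The 5 shares with this adjusted p (those of Slc2a1, Pfkp, Aldoa, Pdk1 and Pfkfb3) each missed the threshold, at adjusted p = 0.0556 to 0.0606, when some single libraries were left out. For Slc2a1 these were resting replicates 1, 3 and 4 and day 7 replicates 1 to 4, and for Pfkp resting replicates 1, 3 and 4 and day 7 replicates 1, 3, 4 and 5. For Aldoa they were resting replicates 2 and 3 and day 7 replicates 1 to 4, for Pdk1 resting replicates 1 and 3 and day 7 replicates 2 to 4, and for Pfkfb3 every library but resting replicate 3.

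Hexokinases, which trap glucose in the cell as glucose 6-phosphate, moved by isozyme. Hk3 (ENSMUSG00000025877, chromosome 13, 55005985 to 55021385), the isozyme known from myeloid cells, rose most. It stood at 74.4, 72.1, 61.0, 92.1 and 47.3 CPM in resting lung and at 419, 473, 392, 224 and 159 CPM at day 7. Every day 7 library lay above every resting one, with a log2 fold change of 2.27 ± 0.29 (SE, edgeR adjusted p = 2.94e-05). Hk2 (ENSMUSG00000000628, chromosome 6, 82725025 to 82774454), the inducible mitochondria-bound isozyme, stood at 25.9, 31.7, 26.4, 28.5 and 31.9 CPM in resting lung and at 166, 119.6, 79.3, 60.7 and 57.1 CPM at day 7. Its groups did not overlap either, and its log2 fold change was 1.74 ± 0.27 (edgeR adjusted p = 0.000148). Hk1, the housekeeping isozyme, stood at 74.5, 93.1, 90.5, 97.4 and 84.0 CPM and at 127, 93.8, 86.8, 79.6 and 86.9 CPM. Apart from day 7 replicate 1 these values mixed, and the log2 fold change of 0.11 ± 0.13 did not pass (edgeR adjusted p = 0.536).

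The mix of hexokinase transcripts therefore differed. Per kilobase, Hk3 made up 54.9 ± 6.25% of the 3 hexokinases in resting lung and 75.9 ± 5.49% at day 7 (SD, n = 5), and Hk1 made up 30.6 ± 3.76% and 10.4 ± 3.68%. Both differences, 21.1 and -20.2 percentage points, had the smallest p of the exact permutation test (0.00794, adjusted p = 0.0185). By mean CPM without the length, Hk1 (87.9) stood above Hk3 (69.4) in resting lung. At day 7 Hk3 (334) stood above Hk1 (94.8) by CPM too. Hk2 rose in level, but its share was 14.5 ± 2.82% and 13.7 ± 2.89%, a difference of -0.83 points that did not pass (exact permutation p = 0.635, adjusted p = 0.706).

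**Figure D2:**
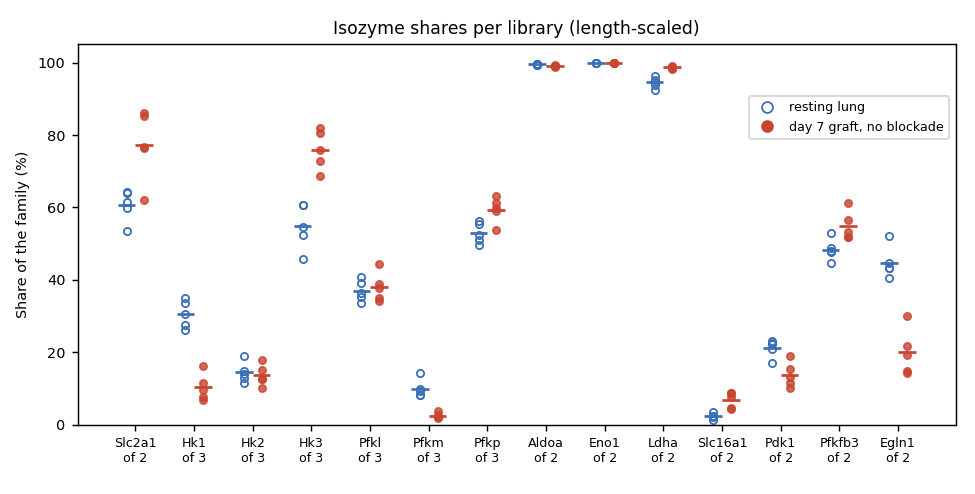
Share of each isozyme in the length-scaled level of its family (y axis, percent), 1 point per library, resting beside day 7. Hk3 gained and Hk1 lost share without overlap, as did Ldha (94.5% to 98.7%) and Egln1 (44.8% to 20.1%). The Egln1 share is of Egln1 and Egln3 alone, without Egln2.

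The upper pathway, from glucose 6-phosphate to the triose phosphates, rose in 6 of 7 genes. Tpi1 (triosephosphate isomerase, ENSMUSG00000023456, chromosome 6, 124810586 to 124814296) had the largest fold change of all 34 genes. It stood at 79.6, 84.1, 81.7, 88.7 and 82.1 CPM in resting lung and at 471, 618, 391, 291 and 343 CPM at day 7. The resting libraries were tightly grouped, every day 7 library lay far above them, and the log2 fold change was 2.34 ± 0.18 (SE), a fold of 5.08 (edgeR adjusted p = 2.39e-07). Aldoc, the minor aldolase, stood at 4.66, 2.68, 3.82, 5.68 and 3.41 CPM and at 19.4, 18.02, 12.3, 11.0 and 10.4 CPM, again without overlap (log2 fold change 1.83 ± 0.25, edgeR adjusted p = 4.09e-05). Aldoa, the major aldolase, rose from 725 ± 86.8 to 1339 ± 221 CPM (SD, n = 5; log2 fold change 0.88), and still made up 99.1% of the 2 aldolases per kilobase at day 7 against 99.5% before. Gpi1, which turns glucose 6-phosphate into fructose 6-phosphate, rose least, from 329.7 ± 26.2 to 443 ± 60.2 CPM (log2 fold change 0.43 ± 0.12, edgeR adjusted p = 0.011), and did not pass when libraries were scaled by their totals alone (adjusted p = 0.0945).

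Phosphofructokinase, the committed step of glycolysis, was carried mostly by Pfkp and Pfkl. Pfkp (the platelet type, ENSMUSG00000021196, chromosome 13, 6579768 to 6648777) stood at 136, 143, 119, 139 and 142 CPM in resting lung and at 497, 457, 418, 358 and 339 CPM at day 7. No day 7 library came near the resting range, and the edgeR adjusted p was 3.14e-07. Pfkl (the liver type) rose from 47.5 ± 5.47 to 135 ± 40.3 CPM (SD, n = 5; log2 fold change 1.51, edgeR adjusted p = 1.63e-05). Pfkm (the muscle type) was the least abundant of the 3, at 6.43 ± 1.65 and 4.28 ± 0.651 CPM. It fell by 0.58 on the log2 scale with overlapping groups (edgeR adjusted p = 0.0349), lost the call when resting replicate 1 or 4 or any of day 7 replicates 1 to 4 was left out (adjusted p = 0.0502 to 0.118), and shares its locus with the opposite-strand gene Senp1, which had 7431 counts against 716 for Pfkm over all libraries. Without the strand setting of the counting, reads of this pair cannot be told apart. Per kilobase, the share of Pfkp was 52.9 ± 2.81% and 59.4 ± 3.52% (exact permutation p = 0.0238, adjusted p = 0.0303), that of Pfkm was 10.02 ± 2.42% and 2.55 ± 0.760% (exact permutation p = 0.00794, adjusted p = 0.0185), and that of Pfkl was 37.05% and 38.0% (exact permutation p = 0.675, adjusted p = 0.706). Taken from raw counts instead, the difference for Pfkp was 3.55 points in place of 6.48 and did not pass (adjusted exact permutation p = 0.101), and that for Pfkm was -2.59 points in place of -7.47.

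**Figure D3:**
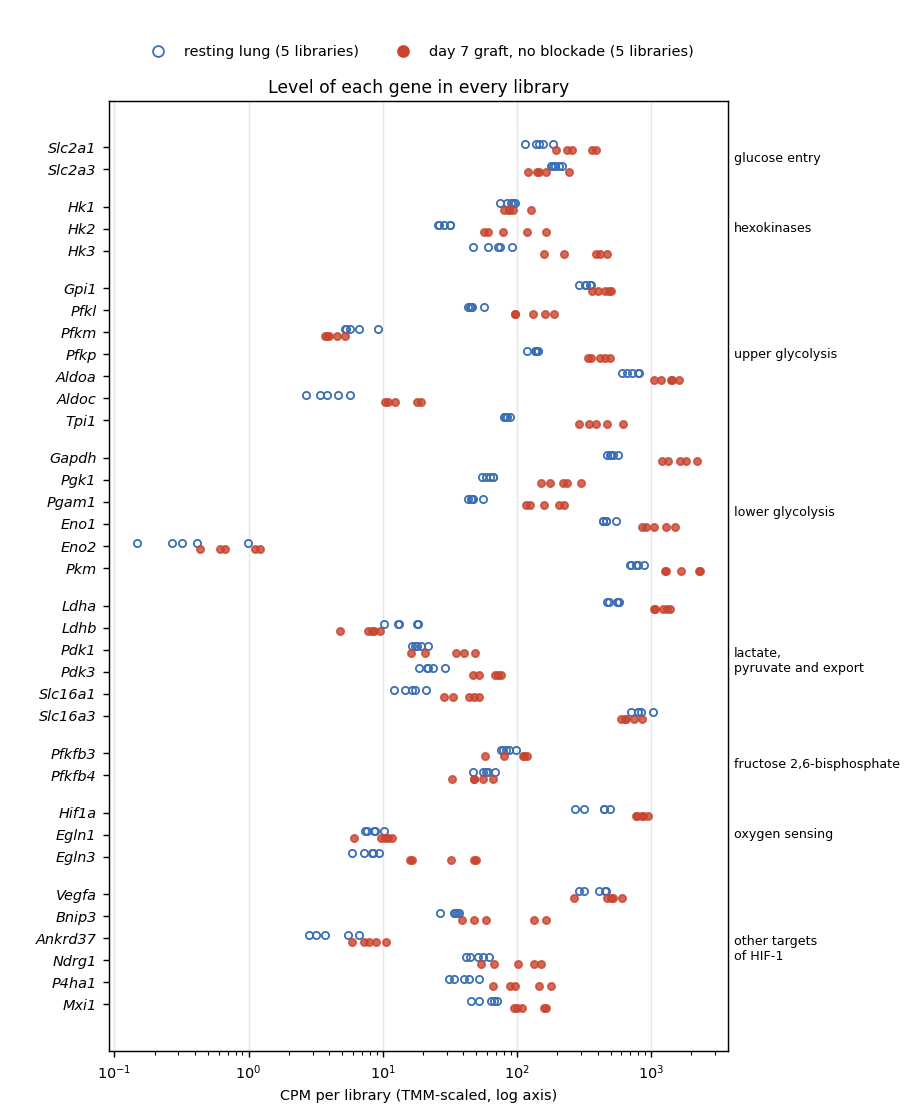
Level of each gene in every library (x axis, CPM on a log scale), grouped by role on the y axis, with resting and day 7 libraries side by side. Day 7 points stand above all resting points for 22 genes, among them the tested enzymes from Tpi1 to Pkm, while Ldhb shows the opposite order. The groups overlap for Eno2, which was not tested.

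All 5 tested genes of the lower pathway, from glyceraldehyde 3-phosphate to pyruvate, rose, each with every day 7 library above every resting one. Pgk1 (phosphoglycerate kinase, the first ATP-yielding step, ENSMUSG00000062070, chromosome X, 106187100 to 106203699) stood at 58.6, 55.3, 66.6, 66.7 and 63.0 CPM in resting lung and at 235, 301, 220.2, 152 and 177 CPM at day 7 (log2 fold change 1.81 ± 0.17, SE, edgeR adjusted p = 1.21e-06). Pgam1 (phosphoglycerate mutase) stood at 47.4, 43.2, 46.5, 56.3 and 45.5 CPM and at 208, 225, 158, 117 and 126 CPM (edgeR adjusted p = 2.45e-06). Gapdh (ENSMUSG00000057666, chromosome 6, 125161715 to 125166467), the dehydrogenase often used as a reference gene, stood at 467, 501, 519, 564 and 495 CPM and at 1824, 2198, 1659.7, 1204 and 1348 CPM. Its log2 fold change was 1.69 ± 0.16 (edgeR adjusted p = 1.84e-06), and its lowest day 7 library stood above its highest resting library. For these 35 genes, 13 annotated copies such as pseudogenes were listed, and none held more than 2.22% of the counts of its parent in any library. Eno1 (enolase) rose from 471 ± 45.2 to 1130.4 ± 272 CPM (SD, n = 5; log2 fold change 1.26). Eno2, the neuronal enolase, had 2 to 22 counts per library and was not tested.

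Pkm (pyruvate kinase, the last step to pyruvate, ENSMUSG00000032294, chromosome 9, 59656368 to 59679375) stood at 701, 805, 778, 882 and 714 CPM in resting lung and at 2315, 2295, 1684, 1293 and 1283 CPM at day 7. The groups were far apart, with the day 7 replicates spread more widely, and the log2 fold change was 1.19 ± 0.19 (SE, edgeR adjusted p = 0.000139). Counts per gene do not tell the M1 and M2 splice forms apart. Compared per kilobase at day 7, Aldoa (460.0 ± 75.8 CPM per kb, SD, n = 5), Gapdh (398 ± 95.3), Ldha (366 ± 47.1) and Pkm (355 ± 102) were at the top and differed from their neighbours in that order by less than their spread. In resting lung, Aldoa (249 ± 29.8 CPM per kb) came first and stood clear of the next by more than its spread. It was followed by Ldha (161 ± 15.1), Slc16a3 (157 ± 21.9) and Pkm (155 ± 14.7), which differed from each other by less than their spread, and by Gapdh (123 ± 8.68). Both orders rest on the length of all annotated exons. By mean CPM without that length, Slc16a3 (837), Pkm (776) and Aldoa (725) led in resting lung. Pkm (1774), Gapdh (1647) and Aldoa (1339) led at day 7.

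**Figure D4:**
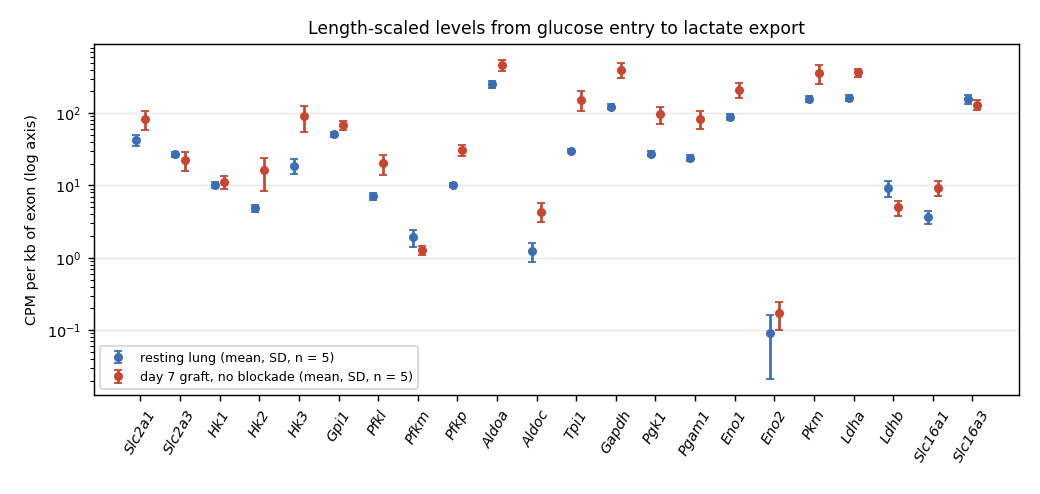
Per-kilobase level of each enzyme step in both groups (y axis, CPM per kb on a log scale; points are group means, bars are SDs over 5 libraries), in the order of the pathway along the x axis. The day 7 means stand above the resting means for most steps from hexokinase to lactate dehydrogenase, with Aldoa, Gapdh, Ldha and Pkm at the top.

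At the fate of pyruvate, the 2 lactate dehydrogenase genes moved apart. Ldha (ENSMUSG00000063229, chromosome 7, 46841475 to 46855627), whose subunit favours making lactate, stood at 487, 569, 582, 472 and 555 CPM in resting lung and at 1328, 1396, 1228, 1046 and 1063 CPM at day 7. Ldhb, whose subunit favours the reverse reaction, stood at 13.0, 13.2, 17.9, 18.3 and 10.2 CPM and at 7.74, 9.56, 8.67, 8.37 and 4.80 CPM. Neither gene's groups overlapped: Ldha rose with an edgeR adjusted p of 5.17e-06 and Ldhb fell by 0.88 on the log2 scale (adjusted p = 0.00403). Ldha made up 94.5 ± 1.45% of both genes per kilobase in resting lung and 98.7 ± 0.273% at day 7 (exact permutation p = 0.00794, adjusted p = 0.0185), a difference of 4.13 points that was 2.03 from raw counts. The Ldha window printed above has 2 E-boxes, while the other Ldha window and the Ldhb window have none. Pfkm, which also fell, has an E-box in 1 of its windows. The part of these letters in the changes was not tested.

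Pdk3 and Pdk1 are kinases that switch off pyruvate dehydrogenase and so keep pyruvate from the mitochondrial cycle. Pdk3 (chromosome X, 93764607 to 93832201) stood at 23.8, 21.7, 21.5, 29.2 and 18.7 CPM in resting lung and at 68.7, 72.5, 76.3, 47.0 and 51.9 CPM at day 7, without overlap (edgeR adjusted p = 6.57e-06). Pdk1 rose from 18.6 ± 2.04 to 32.2 ± 13.5 CPM (SD, n = 5; log2 fold change 0.79 ± 0.26, edgeR adjusted p = 0.0216) with overlapping groups, and missed the threshold without day 7 replicate 1 (adjusted p = 0.0512). It also missed it with totals-only scaling (0.0668) and with limma voom (0.0614). The share of Pdk1 in both kinases per kilobase went from 21.2 ± 2.51% to 13.9 ± 3.42% (exact permutation p = 0.0159, adjusted p = 0.0303), a difference of -7.35 points that was -12.3 from raw counts.

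The monocarboxylate carriers diverged. Slc16a1 (MCT1) stood at 20.9, 12.2, 16.6, 17.4 and 14.7 CPM in resting lung and at 43.7, 52.4, 47.9, 28.9 and 33.7 CPM at day 7, which did not overlap (edgeR adjusted p = 5e-05). Slc16a3 (MCT4, the low-affinity lactate exporter of glycolytic cells) was far more abundant, at 711, 1027, 840.3, 800.1 and 807 CPM and at 643, 648, 594, 744 and 854 CPM. Those values overlapped and their log2 fold change of -0.26 ± 0.14 did not pass (edgeR adjusted p = 0.137), although with totals-only scaling it was -0.45 and did (adjusted p = 0.0172). Slc16a1 made up 2.37 ± 0.722% of both carriers per kilobase in resting lung and 6.84 ± 2.21% at day 7 (exact permutation p = 0.00794, adjusted p = 0.0185).

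Neither gene that sets fructose 2,6-bisphosphate, the activator of phosphofructokinase, passed the test. Pfkfb3, the isozyme with the strongest kinase activity, stood at 87.7, 75.8, 82.3, 98.6 and 78.6 CPM in resting lung and at 111, 118, 114, 79.6 and 58.1 CPM at day 7. Day 7 replicates 1 to 3 lay above every resting library and replicate 5 below every one (log2 fold change 0.19 ± 0.18, SE, edgeR adjusted p = 0.418). Pfkfb4 stood at 59.2, 60.7, 47.4, 69.2 and 55.6 CPM and at 66.3, 48.2, 56.4, 47.6 and 32.8 CPM, with overlap (log2 fold change -0.22 ± 0.17, edgeR adjusted p = 0.313). Their shares still differed: Pfkfb3 made up 48.4 ± 2.95% and then 55.0 ± 4.02% of both genes per kilobase (exact permutation p = 0.0238, adjusted p = 0.0303).

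In the oxygen-sensing group, Hif1a and Egln3 rose and Egln1 did not pass. Hif1a (ENSMUSG00000021109, chromosome 12, 73901375 to 73947530) stood at 319, 443, 493, 272 and 444 CPM in resting lung and at 866, 770.3, 861, 791 and 959 CPM at day 7. The groups were well separated (log2 fold change 1.11 ± 0.16, SE, edgeR adjusted p = 9.22e-05), and replicate 5 was the highest day 7 library. Egln3 (PHD3, itself a HIF-1 target, chromosome 12, 54178981 to 54203860) stood at 9.33, 8.35, 7.23, 5.95 and 8.45 CPM and at 48.1, 49.7, 16.5, 16.1 and 32.2 CPM. Every day 7 library lay above the resting range, yet they differed among themselves more than for most genes (log2 fold change 2.04 ± 0.33, edgeR adjusted p = 0.000202). Egln1 (PHD2, the main oxygen sensor) stood at 8.55 ± 1.09 and 9.74 ± 2.18 CPM (SD, n = 5; log2 fold change 0.19, edgeR adjusted p = 0.436). Per kilobase, its share of both hydroxylases went from 44.8 ± 4.46% to 20.1 ± 6.44% (exact permutation p = 0.00794, adjusted p = 0.0185).

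Of the 6 other HIF-1 targets, 5 rose and Vegfa did not pass. P4ha1 (a collagen prolyl hydroxylase) stood at 40.5, 34.2, 31.3, 51.9 and 44.1 CPM in resting lung and at 181, 145, 96.1, 66.8 and 88.7 CPM at day 7, without overlap (log2 fold change 1.52 ± 0.25, SE, edgeR adjusted p = 0.00026). Bnip3 (a mitophagy receptor) stood at 34.1, 36.1, 34.6, 36.9 and 27.0 CPM and at 164, 135, 59.1, 38.9 and 48.3 CPM. Day 7 replicates 1 and 2 were the high ones, replicate 4 was barely above the resting range, and the log2 fold change of 1.40 ± 0.36 (edgeR adjusted p = 0.00578) was 1.08 without replicate 1. Mxi1, a Max partner that opposes Myc, stood at 45.8, 67.1, 63.9, 52.2 and 70.8 CPM and at 99.5, 110.0, 95.6, 164 and 161 CPM (edgeR adjusted p = 0.000291). Its groups did not overlap, and its highest day 7 values were in replicates 4 and 5, where most of the enzymes were lowest.

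Ndrg1 (a stress-responsive gene) rose from 51.2 ± 8.38 to 102 ± 41.4 CPM (SD, n = 5; log2 fold change 0.99, edgeR adjusted p = 0.00586), with overlap. Ankrd37 (an ankyrin-repeat gene) rose from 4.38 ± 1.63 to 8.10 ± 1.77 CPM (log2 fold change 0.87, edgeR adjusted p = 0.0124), also with overlap. It lies opposite Ufsp2, which had 5516 counts against 983 for Ankrd37, so its value carries the same uncertainty as that of Pfkm. Vegfa (the angiogenic growth factor, chromosome 17, 46016993 to 46032369) stood at 314, 463, 456, 289 and 410.2 CPM in resting lung and at 508, 474, 265, 525 and 609.6 CPM at day 7. Day 7 replicate 3 was the lowest of all 10 libraries while the other day 7 libraries were the highest. The log2 fold change of 0.30 ± 0.21 did not pass (edgeR adjusted p = 0.259), but did without that replicate (0.47, adjusted p = 0.038) and when no filter on low counts was used (0.41, adjusted p = 0.00992).

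Taken as a sum, 18 enzyme genes (hexokinases, upper and lower glycolysis, Ldha and Ldhb) made up 0.392%, 0.419%, 0.423%, 0.457% and 0.400% of all counts in resting replicates 1 to 5. At day 7 they made up 0.984%, 1.07%, 0.867%, 0.703% and 0.762%. The day 7 share was thus above the resting share in every library, at 0.877 ± 0.152% against 0.418 ± 0.0251% (SD, n = 5). Within day 7, replicate 2 was the highest of the 5 for 16 of the 35 genes and replicate 1 for 12, and replicate 4 was the lowest for 18 and replicate 5 for 11. How often each library is highest or lowest over all genes was not counted, so this order may not be particular to these genes. Of the 34 tested genes, 30 had a larger coefficient of variation at day 7 than in resting lung, with medians of 26.6% and 12.3%. The matching share over all genes was not computed, so this spread cannot be called particular to these genes. Over the whole table, pairs of day 7 libraries also differed more (chi-square per degree of freedom 24.7 to 133) than pairs of resting libraries (6.57 to 24.6). Greater depth raises that value too.

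Beside these shares, monocyte and macrophage markers summed to 5466, 9453, 6096, 4114 and 4042 CPM in day 7 replicates 1 to 5, highest in replicate 2 and lowest in replicates 4 and 5. Eosinophil markers summed to 2125, 2053, 2499, 3167 and 3957 CPM, lowest in replicates 1 and 2 and highest in replicates 4 and 5. In resting lung, replicate 4 had both the highest enzyme share and the highest monocyte and macrophage sum (2458 CPM, others 1482 to 1982). The other resting libraries did not follow the day 7 order: replicate 5 had the next highest monocyte and macrophage sum (1982 CPM) with an enzyme share of 0.400%, and replicate 1 had the lowest eosinophil sum (2015 CPM) with the lowest enzyme share (0.392%). What these markers contribute to the enzyme levels was not tested.

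**Figure D5:**
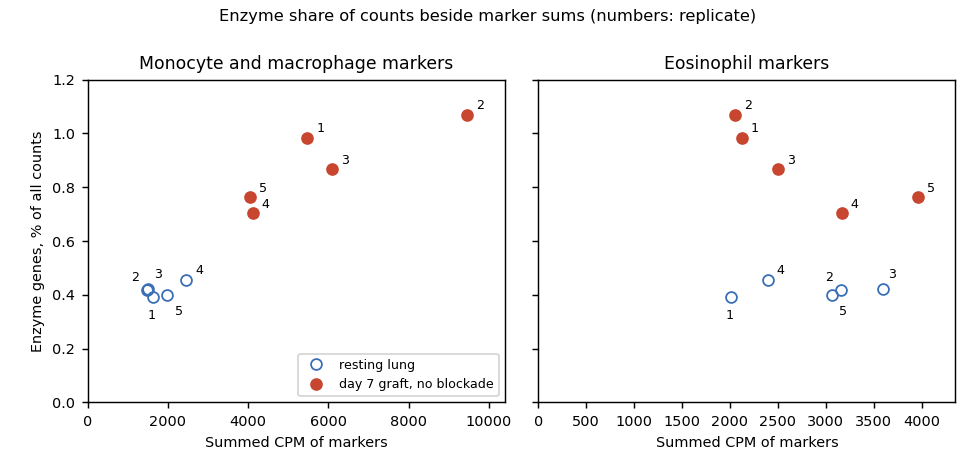
Share of all counts in the 18 enzyme genes (y axis, percent) against the summed CPM of monocyte and macrophage markers and of eosinophil markers (x axes), 1 point per library labelled by replicate. Day 7 replicate 2 stands highest on the share (1.07%) and on the monocyte and macrophage sum (9453 CPM), and the resting libraries lie together at 0.392% to 0.457%.

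Beyond the 35 genes, 7 lists of related pathway genes (97 genes, 90 tested) had 31 genes higher and 13 lower, with a median log2 fold change of 0.15. The counts of each list below stand against the 23.3% higher and 23.4% lower among all genes tested and their median of 0.05. Among 15 tested other genes of glycolysis and gluconeogenesis, 3 rose, 2 fell and 10 did not pass (median log2 fold change -0.21), so neither count exceeds the share among all genes. Pgm1 (phosphoglucomutase) rose from 14.9 ± 3.10 to 37.9 ± 12.8 CPM (SD, n = 5), with Slc2a6 (log2 fold change 0.90) and Minpp1 (0.41). Bpgm, which makes 2,3-bisphosphoglycerate in red cells, fell from 21.9 ± 2.23 to 4.71 ± 1.19 CPM, beside red cell markers of which all 6 tested were lower, and Pck2 fell by 0.71 on the log2 scale.

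The pentose phosphate branch, which supplies NADPH, had 3 of 7 genes higher and 1 lower, beside 23.3% and 23.4% of all genes (median log2 fold change 0.18). The risers were Rpe (log2 fold change 0.41), G6pdx (0.39), its entry enzyme, and Pgd (0.36). Taldo1, of its non-oxidative arm, fell by 0.52. In the glycogen list of 8, with a median of -0.08 and calls near the share among all genes, Gys1 (glycogen synthase, 1.00) and Gyg (glycogenin, 0.70) rose, and the phosphorylases Pygm and Pygb fell by 0.93 and 0.26. The synthesis genes named here were thus higher while these 2 breakdown genes were lower.

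In the list on the fate of pyruvate, 2 of 14 tested genes rose and 3 fell (median log2 fold change 0.13), both below the 23.3% and 23.4% among all genes. The risers were Dld (log2 fold change 0.42) and Pdhb (0.31), subunits of pyruvate dehydrogenase. Pdk4 fell from 8.80 ± 1.75 to 0.828 ± 0.349 CPM (SD, n = 5; log2 fold change -3.37, edgeR adjusted p = 9.18e-07) and Pdk2 from 16.4 ± 3.29 to 5.36 ± 1.45 CPM (-1.61, edgeR adjusted p = 2.78e-05). These kinases belong to the family of Pdk1 and Pdk3, which rose, so the 4 family members did not move together. Pcx (pyruvate carboxylase) fell by 1.32 on the log2 scale.

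Of 11 tested genes of the oxygen-sensing machinery, with a median log2 fold change of 0.27, 6 rose against 23.3% of all genes, among them Vhl (log2 fold change 0.53), the ubiquitin ligase part that binds hydroxylated Hif1a, Arnt (0.51), its dimer partner, and Cul2 (0.49). Epas1 (HIF-2 alpha) was the one that fell, from 949 ± 99.9 to 8.22 ± 3.52 CPM (SD, n = 5; log2 fold change -6.85, edgeR adjusted p = 9.04e-09). Epas1 is known as strongly expressed by endothelium, and all 10 endothelial markers fell as well, with a median log2 fold change of -5.35. The part of endothelial RNA in this fall was not tested.

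Among 23 tested further HIF targets, 12 rose and 4 fell, beside 23.3% and 23.4% of all genes, with a median log2 fold change of 0.42. The largest rises were of Nampt (NAD salvage, 107 ± 13.6 to 698 ± 53.8 CPM, SD, n = 5; log2 fold change 2.70, edgeR adjusted p = 3.26e-09), Mif (a cytokine, 35.8 ± 3.69 to 207 ± 75.2 CPM; 2.53) and Hmox1 (heme oxygenase, 53.6 ± 14.7 to 289 ± 178 CPM; 2.43). The largest falls were of Lox (-2.52), a collagen cross-linking enzyme, Adm (-1.88), a vasoactive peptide, and P4ha2 (-1.52), a paralog of P4ha1. All 10 endothelial markers fell as well, and of 8 stromal markers 4 fell and 1 rose. The part of RNA from such cells in these falls was not tested. Among 12 regulators of the pathway, Arrdc4 (0.77), Max (0.59) and Trp53 (0.38) rose and 9 did not pass, Myc among them (36.3 ± 11.0 and 30.7 ± 3.84 CPM; log2 fold change -0.24, edgeR adjusted p = 0.296).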

How the data were processed

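RNA of sorted lung eosinophils was sequenced in the 10 libraries used here, 5 from resting lung and 5 from lung 7 days after transplantation without costimulatory blockade. The authors deposited whole-number counts per Ensembl gene. The build was mm10, per the submitters' processing notes. These notes list STAR 2.5.2b with featureCounts (Subread 1.5.2), Trimmomatic 0.36 and bcl2fastq 2.17. Strand use and the handling of multi-mapping reads were not given in the sources used here. Columns were tied to samples by their titles or library names, and 10 count columns that matched no label were not used. No 2 libraries of a group agreed within sampling noise (chi-square per degree of freedom of at least 6.57).

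Symbols, exons and coordinates came from GENCODE M21 (49056 of 49315 identifiers had a symbol). Counts were filtered with edgeR's filterByExpr, scaled by TMM and tested with edgeR 4.0.16 (R 4.3.3) quasi-likelihood F tests over 16500 genes, with Benjamini-Hochberg adjustment and a threshold of 0.05. A level of 3 counts, the upper limit that a count of 0 allows, is 0.233 to 0.450 CPM in resting lung and 0.112 to 0.191 CPM at day 7, for counting error only. Isozyme shares divide counts by the length of all annotated exons, so which isozyme leads can depend on that length. They were compared by two-sided exact permutation tests (scipy 1.17.1) over 14 shares. Alternatives were other scalings, DESeq2 1.42.0, limma 3.58.1 voom, no filter, no robust dispersion, a replicate block, summed copies and leaving out each library.

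The genes and lists were chosen with earlier results of these data known. All 35 genes are named; libraries are listed for up to 3 genes of a role with the largest change, for genes that did not pass at 20 CPM or more, and for 7 fixed genes. From each pathway list up to 3 called genes in each direction are named. Tested on simulated data for this comparison (16500 genes), the test recovered 68% of 2-fold rises, 50% of 2-fold falls, 96% of 4-fold rises and 95.6% of 4-fold falls, and called 8 of 16035 unchanged genes. Far fewer genes were changed in the simulation than were called in the data, which makes the adjusted threshold stricter there. These rates therefore do not give the recovery or the false calls in the data.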

Additional observations from a re-analysis of the deposited data

Results flagged for a closer look

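In 4 cases 1 resting library stood apart from the other 4 by Dixon's test, which chance alone gives in about 1 in 20 groups. Resting replicate 4 was the highest for Pfkl, at 57.1 CPM against 43.6 to 46.5 CPM in the others, and for Eno1, at 549 CPM against 440.4 to 465 CPM. The same library had the highest monocyte and macrophage marker sum of the resting libraries, 2458 CPM. Resting replicate 3 was the lowest for Pfkp, at 119 CPM against 136 to 143 CPM, and resting replicate 5 the lowest for Bnip3, at 27.0 CPM against 34.1 to 36.9 CPM. Each of these genes kept its rise at day 7 when that library was left out.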

How the results depend on the processing

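The count of the 35 genes called higher stayed between 23 and 26 under every alternative run, and leaving out 1 library gave 24 to 26. The count called lower was 1 without a filter on low counts and 1 with the replicate block, where Pfkm lost its call, and ran from 1 to 3 when 1 library was left out; it was 1 on leaving out resting replicates 1 or 4 or any of day 7 replicates 1 to 4. The replicate numbers carry no stated pairing, deviations of same-numbered libraries correlated at -0.35 to 0.27, and the replicate block gave 25 genes higher and, over all genes, 3317 higher and 3636 lower.

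Over all genes, DESeq2 called 3954 higher and 6121 lower, and edgeR without the filter 4862 and 6715, both over 42249 genes. The 11 isozyme shares that passed were 6 to 10 when 1 library was left out, with 7 on leaving out resting replicates 1 or 3 or either of day 7 replicates 1 and 2, and 6 on leaving out day 7 replicates 3 or 4; fewer samples also raise the smallest p.

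Under these alternatives signs turned only for values that had not passed. With library totals alone, Hk1 was -0.088, Pfkfb3 -0.019 and Egln1 -0.0094 on the log2 scale, and leaving out 1 library moved Hk1 between -0.0064 and 0.18. From raw counts the share differences of Hk2 and Pfkl were 2.40 and -0.96 points. Leaving out 1 library moved the Hk2 share difference between -1.86 and 0.30, that of Pfkl between -0.59 and 1.95 and that of Eno1 between -0.014 and 0.038 points; the cause was not tested.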
